A study of Saccharomyces cerevisiae with 10 samples.

Results

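The expression of 10 genes of malate, glyoxylate and gluconeogenic metabolism was followed in budding yeast, Saccharomyces cerevisiae: the malate dehydrogenases MDH1, MDH2 and MDH3, the gluconeogenic genes PCK1 and FBP1, the glyoxylate cycle genes ICL1, MLS1 and CIT2, the acetyl-CoA synthetase gene ACS1 and the carrier gene SFC1. Each had exactly 1 probe set paired with it alone by the platform annotation, giving 10 of the 9275 probe sets of the array that are not controls, and 10 of the 5656 genes with a probe set of their own. The genes were chosen by function, with the strain difference of MDH2 already known from these arrays. The differences between the strains are therefore given below as descriptions, with their errors and without a p-value.

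The tested strain lacks EDC3 (named CFY25 in the sample labels and SYY14 in the design text), and its control is the wild-type strain HFY114, which the design text calls isogenic. Both were cultured in rich glucose medium (YEPD) at 30 °C without further treatment. RNA of 5 deletion and 5 wild-type cultures, labelled biological replicates, was hybridised to Affymetrix Yeast Genome S98 arrays, 1 sample per array. The labels give same-numbered arrays of the strains a shared letter, and these pairs are called experiments 1 to 5. The labels do not state from how many clones the deletion cultures came.

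Malate dehydrogenases interconvert malate and oxaloacetate. Mdh1 is the mitochondrial enzyme of the citrate cycle, Mdh2 the cytosolic enzyme that supplies oxaloacetate for making glucose, and Mdh3 the peroxisomal enzyme that takes part in the oxidation of fatty acids and in the glyoxylate cycle. When yeast lives on acetate or ethanol, the glyoxylate cycle turns acetyl-CoA into malate and oxaloacetate, from which Pck1 and Fbp1 lead back to hexose phosphates. In glucose medium most of these genes are known to be repressed, and the enzymes Mdh2, Fbp1, Icl1 and Pck1 are degraded when glucose returns. Edc3, found in the cytoplasm, promotes decapping, by which an mRNA is committed to decay.

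Median signals of the arrays lay between 58.2 and 66.8, and EDC3 itself read 456.8 or more on every wild-type array and 2.3 at most on the deletion arrays. The 4 mouse control probe sets, for which yeast has no target, read 4.8 at most. Within each strain the arrays of experiments 4 and 5 were nearly alike: among probe sets of mean signal above 200, their log2 signals differed with a median absolute deviation of 0.08 in the deletion strain and 0.09 in wild type, while other pairs of one strain gave 0.21 to 0.48. The labels do not say whether they are separate cultures, so the MDH2 value is also given with both averaged. The probe sets are measured as MAS5 signals on a linear scale, scaled by the authors to a common level on each array, so a signal can be compared between arrays for one gene and not between genes. In such cultures a lower signal in every cell and a loss from some of the cells cannot be told apart.

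MDH2 (YOL126C) was lower in the deletion strain in each of the 5 experiments, at a mean of 42.8% of the wild-type signal. The deletion arrays of experiments 1 to 5 read 154.7, 164.6, 107.5, 52.1 and 62.2, against 346.2, 257.9, 278.6, 159.8 and 154.6 in wild type. The mean was 108 ± 51.5 in the deletion strain and 239 ± 81.9 in wild type (SD, n = 5 each). The strains' ranges overlapped, since the deletion array of experiment 2 read above both wild-type arrays of experiments 4 and 5, while within every experiment the deletion array was the lower one. As a share of the paired wild-type array, the deletion signal was 44.7%, 63.8%, 38.6%, 32.6% and 40.2%. The mean log2 difference was -1.22, with a standard error of 0.12 with the experiments as a block and of 0.34 without it. Only EDC3 had a larger mean fall among the 6492 tested probe sets, and URA1 was the one other probe set with a mean log2 difference under -1 (3 of 6492 in all, or 0.0462%). Ranked by the difference within a single experiment, MDH2 stood at place 18, 43, 10, 3 and 2 from the bottom.

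In the fit with the experiments as a block, MDH2 was the 1 called member among the 7 that entered the test, against 0.447% of all tested probe sets (29 of 6492) at an adjusted p under 0.05. Of all tested probe sets 0.216% were called lower and 0.231% higher. Without the block 0 of the 7 were called, against 0.077% of all (5 of 6492). Since the genes were chosen with this contrast known, nothing is read from these counts. The MDH2 call was kept on leaving out any one experiment, with log2 differences from -1.37 without experiment 2 to -1.12 without experiment 4, and with experiments 4 and 5 averaged as 1 replicate (-1.16). It was lost with experiments 1 to 3 alone, where the log2 difference was -1.06 ± 0.14 (SE).

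Signs of RNA quality differed slightly between the strains, with a smaller excess of 3′ over 5′ signal in the deletion strain. The ACT1 controls at the 3′ and the 5′ end of the transcript had a log2 ratio (3′ over 5′) that averaged 0.76 on the deletion arrays and 0.83 on the wild-type arrays, and it was lower in the deletion in 5 of 5 experiments. The SRB4 ratio averaged 3.02 in the deletion strain and 3.32 in wild type, and the SPT15 ratio 2.25 in the deletion strain and 2.41 in wild type, each lower in the deletion in 4 of 5 experiments. The part of this in the MDH2 difference was not tested. The genes that flank MDH2 on chromosome XV in the R64 assembly were chosen once these values were known. RPL25, a ribosomal protein gene, had a log2 difference of -0.07 ± 0.04 and TRM13, a tRNA methyltransferase gene, one of -0.06 ± 0.11 (SE).

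**Figure D1:**
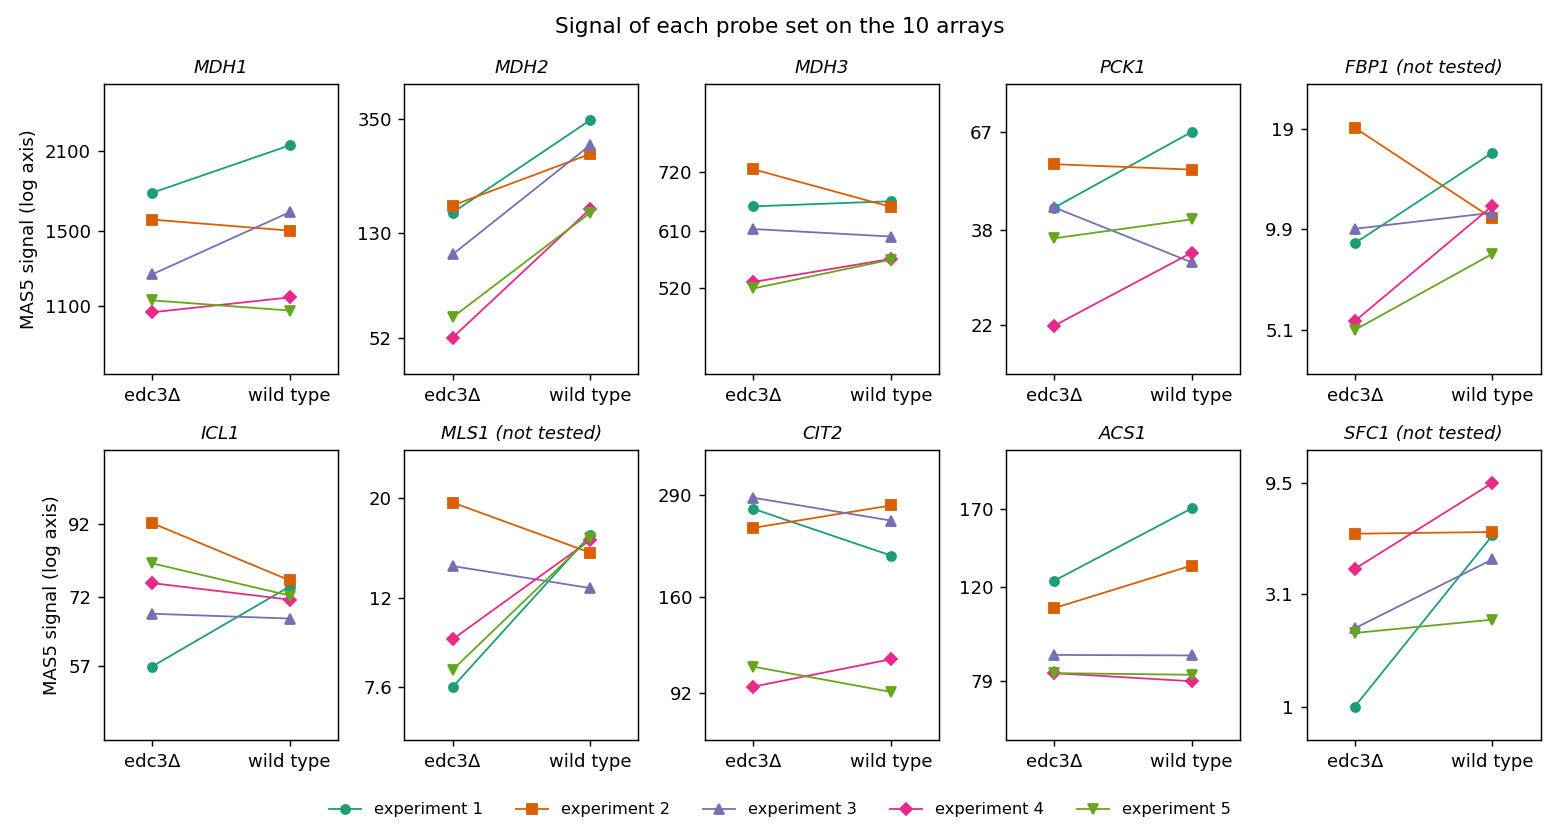
MAS5 signal (log axis, scale set per gene) of the 10 genes on each array, with the edc3 deletion at the left and wild type at the right of each panel; a line joins the 2 arrays of one experiment. The 5 lines of MDH2 all run upwards to wild type, from 52.1 to 164.6 in the deletion strain against 154.6 to 346.2 in wild type, while the lines of the other tested genes run both ways.

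The other malate dehydrogenases did not share the size of the MDH2 difference. MDH1 (YKL085W) read 1761.6, 1576, 1253, 1069.9 and 1124.8 in the deletion strain, against 2147.9, 1505, 1624.7, 1138.6 and 1077.9 in wild type, in experiments 1 to 5. The strains' ranges overlapped, with 1 wild-type array, that of experiment 1, above every deletion array, and the deletion array was the lower one in 3 of 5 experiments. The mean log2 difference was -0.12 ± 0.07 (SE), with the lower values in experiments 1 and 3 (-0.29 and -0.37) and values between -0.09 and 0.07 in the others. Without experiment 3 it was -0.06.

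MDH3 (YDL078C) read 653.2, 724.7, 613, 528.5 and 519 in the deletion strain, against 662.6, 652.2, 600.3, 563.8 and 562.7 in wild type. No strain stood above the other: the means were 608 ± 86.5 in the deletion strain and 608 ± 47.4 in wild type (SD, n = 5 each). The log2 difference was -0.01 ± 0.05 (SE), with single experiments between -0.12 and 0.15. MDH3 was the steadiest member, with an SD of 0.16 in log2 signal over the 10 arrays, against 0.89 for MDH2.

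Within each array the MDH2 signal can be set relative to its isozymes. The log2 difference of MDH2 minus that of MDH1 lay between -1.53 in experiment 4 and -0.71 in experiment 2, with a mean of -1.10 ± 0.34 (SD, n = 5 experiments). Relative to MDH3 the mean was -1.21 ± 0.28 (SD, n = 5 experiments), with single experiments between -1.52 and -0.80. The ratio of MDH2 to either isozyme was thus lower in the deletion in every experiment, which shows unequal change and not which of the genes was constant.

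**Figure D2:**
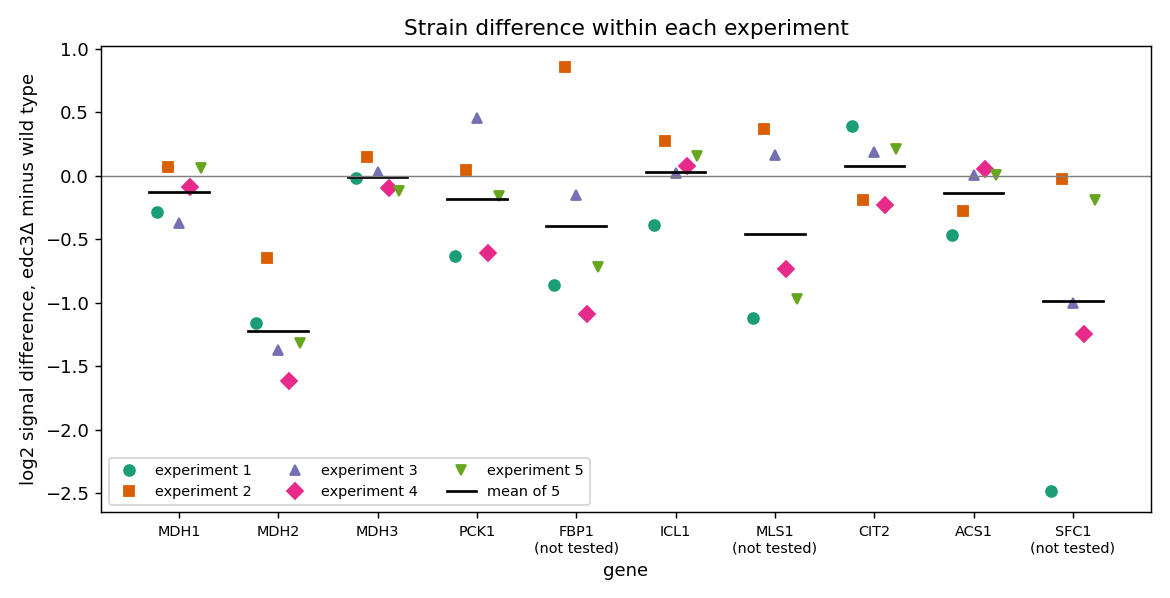
Log2 signal difference, edc3 deletion minus wild type, within each experiment (points) and its mean over the 5 experiments (bar) for the 10 genes. MDH2 lies between -1.62 and -0.65 in all experiments; FBP1, MLS1 and SFC1, whose signals were too low to enter the test, spread most.

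The gluconeogenic genes PCK1 and FBP1 showed no difference of one sign. PCK1 (YKR097W) encodes phosphoenolpyruvate carboxykinase, which converts oxaloacetate to phosphoenolpyruvate. Its signal was 43.3, 55.7, 43.4, 21.9 and 36.3 in the deletion strain, against 67.1, 54, 31.6, 33.4 and 40.5 in wild type. The deletion array was lower in 3 experiments and higher in the other two, and the log2 difference averaged -0.18 ± 0.16 (SE), between -0.63 in experiment 1 and 0.46 in experiment 3. It was -0.07 without experiment 1 or without experiment 4, and -0.34 without experiment 3. FBP1 (YLR377C) encodes fructose-1,6-bisphosphatase, which removes a phosphate from fructose bisphosphate near the end of the pathway. It was left out of the test, as its mean signal lay under the limit of 16.8 that cuts off the dimmest 30% of the probe sets. The deletion arrays read 9, 19.2, 9.9, 5.4 and 5.1, against 16.3, 10.6, 11, 11.5 and 8.4 in wild type. The deletion was the lower strain in 4 of 5 experiments, with a mean log2 difference of -0.39 ± 0.78 (SD, n = 5 experiments), and its highest and its lowest array both belonged to the deletion strain. The mean was -0.70 without experiment 2 and -0.22 without experiment 4.

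Of the genes of the glyoxylate cycle, ICL1 and CIT2 were measured well enough to be tested and MLS1 was not. ICL1 (YER065C) encodes isocitrate lyase, which splits isocitrate into glyoxylate and succinate. It read 56.9, 92.3, 68, 75.4 and 80.6 in the deletion strain, against 74.5, 76.1, 66.9, 71.3 and 72.3 in wild type. The wild-type arrays lay close together and the deletion arrays on both sides of them, with a log2 difference of 0.03 ± 0.10 (SE). Without experiment 1, the 1 experiment in which the deletion was lower, the difference was 0.13, and without experiment 2 it was -0.03.

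MLS1 (YNL117W) encodes malate synthase, which joins glyoxylate and acetyl-CoA to form malate. Its signals were 7.6, 19.5, 14.1, 9.7 and 8.3 in the deletion strain, against 16.5, 15.1, 12.6, 16.1 and 16.3 in wild type. The deletion arrays of experiments 1, 4 and 5 lay below every wild-type array, and those of experiments 2 and 3 lay above their own partners. The log2 difference averaged -0.46 ± 0.68 (SD, n = 5 experiments), and -0.29 without experiment 1. All these signals exceeded the mouse controls, whose highest was 4.8, but the table holds no detection calls, so how much of so low a signal is MLS1 RNA is unknown.

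CIT2 (YCR005C) encodes the peroxisomal citrate synthase, whose gene is the usual marker of retrograde signalling from mitochondria to the nucleus. It read 267.5, 239.4, 285.3, 95.2 and 106.9 in the deletion strain, against 203.9, 272.8, 249.8, 111.6 and 92.3 in wild type. The arrays separated by experiment and not by strain: the 4 arrays of experiments 4 and 5 read 111.6 at most, and the other arrays 203.9 or more. The log2 difference was 0.08 ± 0.10 (SE), higher in the deletion in 3 of 5 experiments, and -0.00 without experiment 1 and 0.15 without experiment 4.

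ACS1 (YAL054C), whose product makes acetyl-CoA from acetate, read 123.3, 109.2, 88.7, 81.8 and 81.8 in the deletion strain, against 170.2, 132, 88.5, 78.9 and 81.2 in wild type. The deletion array was lower in experiments 1 and 2, with log2 differences of -0.47 and -0.27, and within 0.05 of wild type in the other experiments. Its mean log2 difference was -0.13 ± 0.09 (SE), and -0.05 without experiment 1. SFC1 (YJR095W) encodes the mitochondrial carrier that exchanges succinate for fumarate. Its signal was 1, 5.7, 2.2, 4 and 2.1 in the deletion strain, against 5.6, 5.8, 4.4, 9.5 and 2.4 in wild type. These lie among the mouse control signals or just above them, and like FBP1 and MLS1 the gene was left out of the test. The deletion array was lower in all 5 experiments, but the log2 difference ran from -2.49 to -0.03 (mean -0.99 ± 0.98, SD, n = 5 experiments, and -0.62 without experiment 1), and at this signal a difference was not detectable.

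Taking all 10 genes, 8 had a mean log2 difference below 0 and 2 above 0. MDH2 and SFC1 were the 2 that were lower in all 5 experiments, and MDH2 was the 1 of the 7 tested, against 10.2% of all tested probe sets. None of the 10 had every deletion array below or above every wild-type array, against 0.632% of tested probe sets wholly below and 0.57% wholly above. The median log2 difference of the 7 tested genes was -0.12, against -0.00 over all tested probe sets. By experiment, the number of the 10 genes lower in the deletion was 9, 4, 4, 8 and 6. In experiments 2 and 3 alike, 6 of the 10 were higher, and the MDH2 difference was the smallest in experiment 2 (-0.65) and the second largest in experiment 3 (-1.37). Experiment 1, in which CIT2 alone was higher, gave the lowest differences of SFC1, MLS1, PCK1, ICL1 and ACS1.

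**Figure D3:**
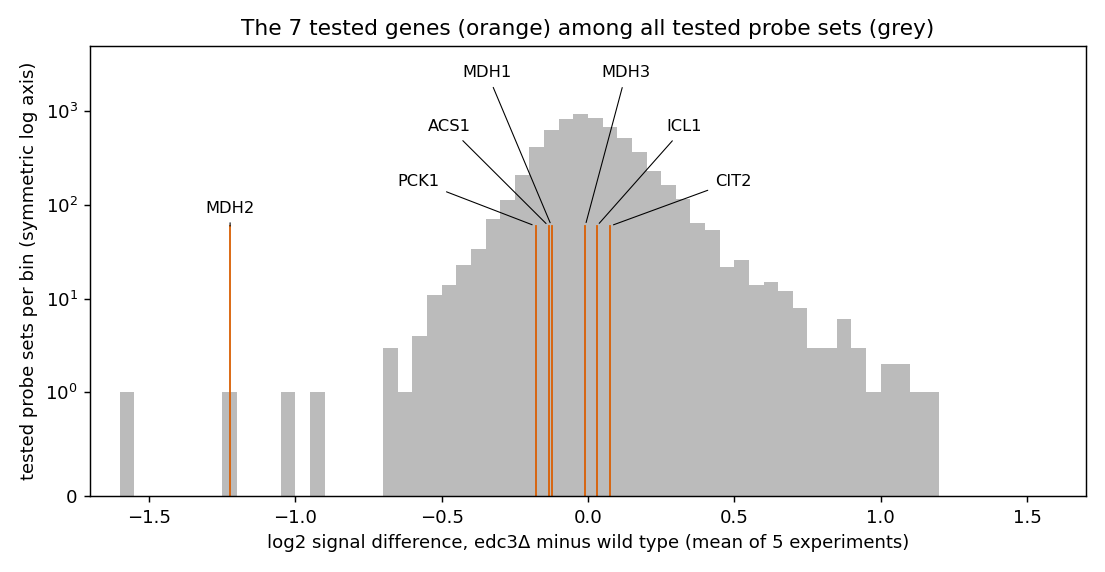
Number of tested probe sets (symmetric log axis) by mean log2 signal difference, edc3 deletion minus wild type, in bins over 6492 probe sets; orange lines mark the 7 tested genes, and EDC3, at -8.97, is drawn in the lowest bin. MDH2 stands apart at -1.22, and the other 6 genes lie between -0.18 and 0.08, inside the bulk of the distribution.

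For each gene the sum of squares of the log2 signals over the 10 arrays was divided into experiment, strain and remainder. For MDH2, experiment took 43.4% and strain 52.9%. For the other 6 tested genes, experiment took between 56.4% (ICL1) and 96.3% (CIT2), and strain between 0.107% (MDH3) and 4.12% (PCK1). Experiment has 4 degrees of freedom and strain 1, and over all tested probe sets the median shares were 76.2% for experiment and 5.69% for strain. Strain took the larger share in MDH2 alone of the 7, and experiment took the larger share in 93.4% of all tested probe sets.

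Experiments 4 and 5 stood apart from experiments 1 to 3 in most of the tested genes. MDH1, MDH2, MDH3, CIT2 and ACS1, 5 of the 7 tested genes, read lower in both experiments 4 and 5 than in each of experiments 1 to 3 within both strains, against 20.6% of all tested probe sets. For MDH1, MDH3, CIT2 and ACS1 this also held across strains, against 16.5% of all tested probe sets. The geometric mean of CIT2 in experiments 4 and 5 was 0.383 times that of experiments 1 to 3 in the deletion strain and 0.422 times in wild type. For MDH2 the ratios were 0.407 in the deletion strain and 0.538 in wild type, and for MDH3 0.791 in the deletion strain and 0.883 in wild type. ICL1 was alike in both sets, with ratios of 1.10 in the deletion strain and 0.992 in wild type. Experiment 4 was recorded with 1 scan at 2.5 µm per pixel and experiments 1 and 2 with 2 scans at 3 µm per pixel. These settings are blank for experiment 3 and were not analysed for experiment 5, so scan settings and experiments cannot be told apart here.

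**Figure D4:**
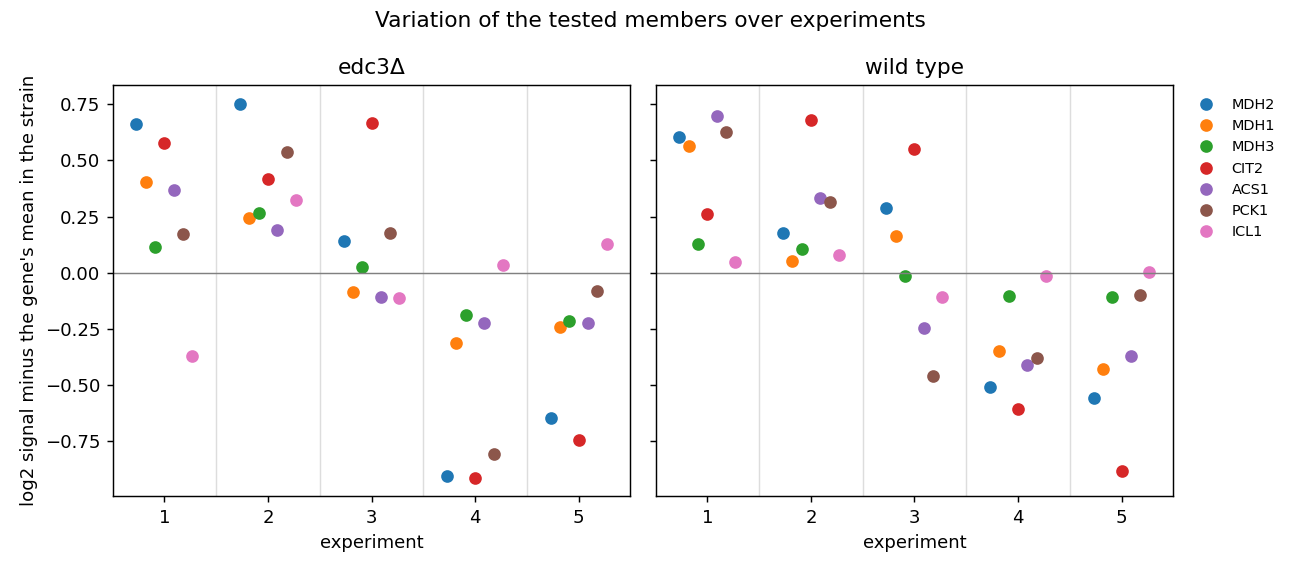
Log2 signal minus the gene's own mean within the strain, by experiment, for the 7 tested genes in the edc3 deletion (left) and in wild type (right). MDH2, MDH1, MDH3, CIT2, ACS1 and PCK1 lie below 0 in experiments 4 and 5 in both strains, and ICL1 stays close to 0 in wild type.

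The genes with the most similar course over the 10 arrays were found by the root mean square difference of log2 signals, each centred on its own mean, over 5412 other tested probe sets with 1 gene. This distance is not scaled and can grow with a gene's own spread. The SD of log2 signal over the arrays was 0.89 for MDH2, 0.70 for CIT2, 0.47 for PCK1 and 0.38 for ACS1. For MDH2 the nearest was HEF3, a gene for a translation elongation factor, at 0.42. HEF3 was dim, with a mean signal of 17.9 in the deletion strain and 27.3 in wild type, near the limit of 16.8. It was followed by GPX1, a glutathione peroxidase gene, and ATG34, an autophagy receptor gene, both at 0.49. The log2 differences of these genes between the strains were -0.65 ± 0.17, -0.38 ± 0.15 and -0.36 ± 0.10 (SE), each lower in the deletion in 4 of 5 experiments and none called. Likeness was taken over all 10 arrays, strain difference included, so lower values in the deletion follow in part from this choice. For CIT2 the nearest were MUP3, a methionine permease gene (0.14), CHL4, a kinetochore gene (0.15), and MAL11, a maltose permease gene (0.17). For ACS1 they were SFH5 (0.10), LSM8 (0.11) and SMT1 (0.11), and for PCK1 CIS1 (0.15), BIR1 (0.16) and PGU1 (0.18). None of these 9 genes was called between the strains. CIS1 and PGU1 were also dim, with mean signals of 19.4 and 19.2 in the deletion strain and 21.7 and 21.6 in wild type.

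Genes around these enzymes were taken from 7 lists chosen by function, of which 106 genes were tested and 1 was called, against 0.447% of all tested probe sets. Nothing about the lists is read from so small a count. The regulators of glucose repression and of its release had 12 of 19 tested genes higher in the deletion and 7 lower, 0 called, and a median log2 difference of 0.04. The repressor gene MIG2 differed by -0.34 ± 0.07, the gene of the kinase Snf1 by 0.22 ± 0.07, and PIP2, an activator gene for fatty acid use, by -0.20 ± 0.07 (SE). None passed, with adjusted p of 0.0679 or more.

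Genes for acetate use, carbon uptake and the carriers of dicarboxylates and carnitine had 6 of 19 higher, 13 lower and 0 called, with a median of -0.07. MAE1, the gene of the mitochondrial malic enzyme, which turns malate into pyruvate, read 556 ± 222 in the deletion strain and 695 ± 257 in wild type (SD, n = 5 each). It was lower in all 5 experiments by a log2 difference of -0.33 ± 0.06 (SE), and did not pass (limma adjusted p = 0.0525). DIC1, a mitochondrial carrier that moves malate and other dicarboxylates, differed by -0.25 ± 0.05 (SE, limma adjusted p = 0.0642), also lower in 5 of 5. ODC1, a carrier of oxodicarboxylates, differed the other way, by 0.36 ± 0.12 (SE). These 3 were the genes of smallest p in the list, and none was called without the block either.

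Citrate cycle enzymes and paralogs of the glyoxylate enzymes had 6 of 19 higher, 13 lower and 0 called, with a median of -0.04. The aspartate aminotransferases, which interconvert oxaloacetate and aspartate, differed by -0.18 ± 0.05 each, the mitochondrial one (AAT1) lower in 5 and the cytosolic one (AAT2) in 4 of 5 experiments. IDP2, the cytosolic isocitrate dehydrogenase gene, differed by -0.27 ± 0.13 (SE). Genes of peroxisomal fatty acid oxidation had 4 of 11 higher, 7 lower, 0 called and a median of -0.01. PEX11, needed for peroxisome division, differed by -0.25 ± 0.07, the thiolase gene POT1 by -0.33 ± 0.12 and ANT1, a peroxisomal nucleotide carrier gene, by 0.35 ± 0.13 (SE). POT1 was dim, with a mean signal of 18.1 in the deletion strain and 22.7 in wild type, near the limit of 16.8.

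The list of the ubiquitin ligase that marks gluconeogenic enzymes for destruction also held genes for their breakdown in the vacuole, and SEF1, a gene of neither group. Of its 12 genes 6 were higher, 6 lower and 0 called, with a median of 0.00. VID24, whose product recognises the substrates, differed by -0.30 ± 0.14, VID27 by -0.12 ± 0.07, and GID8, a subunit of the ligase, by 0.30 ± 0.17 (SE). Retrograde response genes had 2 of 9 higher, 7 lower, 0 called and a median of -0.04. LYS21, a homocitrate synthase gene, differed by -0.16 ± 0.05, RTG2, which activates the response, by 0.13 ± 0.05 and MKS1, which holds it back, by -0.18 ± 0.08 (SE).

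The list of other glucose-repressed genes had 14 of 17 higher in the deletion, 3 lower and a median of 0.19, against -0.00 over all tested probe sets. Whether glucose represses each listed gene was not checked, so nothing about glucose repression is read from these counts. HXK1, a hexokinase gene already known as called from earlier work on these arrays, was the 1 called in this list. It read 1471 ± 556 in the deletion strain and 1200.1 ± 404 in wild type (SD, n = 5 each), higher in all 5 experiments by 0.27 ± 0.04 (SE, limma adjusted p = 0.0481 with the block and 0.999 without it). This call was lost on leaving out any one experiment. SUC2, the invertase gene, differed by 0.41 ± 0.09 (SE, limma adjusted p = 0.073) and UGA1, a gene of the use of gamma-aminobutyrate, by 0.25 ± 0.07 (SE, limma adjusted p = 0.0937), each higher in all 5 experiments and not called. Some glucose-repressed genes of the list of acetate use and carriers, chosen here after their values were seen, had differences below 0. The lactate permease gene JEN1 differed by -0.38 ± 0.18 and the alcohol dehydrogenase gene ADH2 by -0.32 ± 0.18 (SE). The carnitine acetyltransferase gene CAT2 differed by -0.35 ± 0.19 (SE), and none was called. JEN1 and CAT2 were dim, near the limit of 16.8. Their mean signals were 15.5 and 17.3 in the deletion strain, against 19.4 and 21.5 in wild type. ADH2 read 53.1 ± 9.1 in the deletion strain and varied more in wild type, at 70.6 ± 35.7 (SD). Other genes of that list went the other way. Of its 19 tested genes 6 were higher, among them ATO2 by 0.30 ± 0.11 (SE), in 5 of 5 experiments.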

How the data were processed

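Signals of 10 arrays were analysed, 5 per strain, grouped by sample title. The deposited values are intensities: per the submitters' processing notes the authors used MAS5, of a version not named there. The values show that all arrays were brought to a like mean before deposit, and this was kept. Deposited instrument records of 8 arrays, whose other entries are settings and not expression, gave pixel size, scans and chip lot. Both arrays of experiment 1 were of one lot, and those of experiments 2 and 3 of another. The lot was blank for experiment 4. Lot and experiment therefore cannot be told apart for experiment 1. Genes were named through the platform annotation and the RefSeq table of assembly R64: of 9275 probe sets without the 60 controls, 6504 had 1 gene (all matched), 328 several and 2443 none listed. No coordinates are given, as the build of the array design is not known.

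Signals were converted to log2 with 156 zeros raised to 0.1, and the dimmest 30% were left out, leaving 6492. The test was limma 3.58.1 under R 4.3.3 (eBayes with trend), with the experiment as a block, two-sided, Benjamini-Hochberg over all tested probe sets, threshold 0.05. The pairing rests on the shared letters of the titles; deviations of same-numbered arrays from the strain means correlated at 0.65, 0.713, 0.475, 0.652 and 0.692 across probe sets. The highest correlation with another number was 0.215 to 0.219 for experiments 1 to 3 and 0.635 for experiments 4 and 5, which resemble each other nearly as much. The number of arrays limits the precision. The p-values of the blocked fit measure only the spread of the strain differences over these 5 experiments, with variances drawn toward a trend over probe sets. List genes stood by their brightest probe set. On simulated arrays with 100 of 6492 probe sets changed at each fold, the blocked fit found 81% of those changed 1.5-fold, 98% of those changed 2-fold, and 7 unchanged ones. Without the block 40%, 78% and 0 were found. The simulated noise was independent between arrays, while the real arrays of experiments 4 and 5 were nearly alike. These rates may therefore be too high for the real arrays.

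The members, lists and settings were chosen with earlier results of these data known. Named were all members, EDC3, in each list the called genes and the 3 of smallest p, and the 3 most similar genes of MDH2 and of the 3 other tested members that varied most. URA1, the neighbours of MDH2, JEN1, ADH2, CAT2 and ATO2 were chosen after their values were seen. Alternatives covered the block, the dim filter, an offset, the scaling, the eBayes settings, array weights and left-out experiments.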

Additional observations from a re-analysis of the deposited data

Results flagged for a closer look

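In 67 sets of 5 values, 2 values (signals taken as log2) lay farther from the rest than Dixon's 95% limit allows, where chance gives about 1 in 20; none belongs to the 10 genes. The EDC3 signal of the deletion array of experiment 3 was 0.1, the smallest positive signal of the table, while the other deletion arrays read 1 to 2.3. It stands apart on the log2 scale alone, 0.1 is also the floor given to zeros, and all these signals lie under the highest mouse control signal of 4.8. The DIC1 log2 difference, deletion minus wild type, was -0.37 in experiment 1, against -0.24 to -0.19 in the others.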

How the results depend on the processing

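Over 17 alternative settings, each of the 170 recomputed differences of the 10 genes moved by less than the SD over experiments. The block, the dim filter and the eBayes settings cannot change these estimates. Leaving out 1 of 5 experiments can move a mean only by part of that SD. Nothing is therefore read from this count. MDH1, MDH2, PCK1, FBP1, MLS1, ACS1 and SFC1 kept one sign, and MDH3, ICL1 and CIT2, whose differences lie close to 0, did not. For the untested dim genes the size varied widely. It ran from -1.23 to -0.18 for SFC1, from -0.70 to -0.05 for FBP1 and from -0.67 to -0.19 for MLS1. MDH2 stayed between -1.37 and -1.06 and was called in 14 settings; the count of called genes among the 10 was 0 without the replicate block, for experiments 1 to 3 alone, and if experiments 4 and 5 were averaged with no block (chosen after seeing the data). Without the block the estimates are identical and their errors larger. Over the whole array, 29 were called; the count was 5 without the replicate block, 18 without the dim filter, 55 with the dimmest 50% left out, 45 with median centring, 16 without the eBayes trend, 56 with robust eBayes, 851 with array weights, 8 with experiments 4 and 5 averaged, 3 with these averaged and no block, 3 for experiments 1 to 3 alone, and 7 to 30 on leaving out one experiment. The count of the glucose-repressed list, 1 in the main setting, was 6 with array weights. It was 0 without the block, without the dim filter, with median centring and without the trend. It was also 0 with experiments 4 and 5 averaged (with or without the block). The same held for experiments 1 to 3 alone and on leaving out any 1 experiment. Array weights called 3 regulators, 3 genes of acetate use and carriers, 2 citrate cycle, 2 fatty acid oxidation and 1 retrograde gene, where the main setting called 0. The acetate and carrier list had 1 with the dimmest 50% left out, with median centring and with robust eBayes. For each of these counts the cause was not tested. The table holds no background level, so signal over background cannot be given for FBP1, MLS1 and SFC1.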

Other observations

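Signals in experiments 4 and 5 were also lower for some of the other lists. Of the 19 tested genes of the citrate cycle list, 11 had all 4 arrays of experiments 4 and 5 below all arrays of experiments 1 to 3. Of the 17 tested genes of the glucose-repressed list 11 did, against 16.5% of all tested probe sets. Of the 19 genes of the regulator list 6 did, of the 19 genes of acetate use and carriers 2 did, and of the 11 genes of fatty acid oxidation 2 did. Of the 12 genes of the ubiquitin ligase list 2 did, and of the 9 retrograde response genes, whose usual marker is CIT2, 1 did.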
